A study of Drosophila melanogaster with 15 samples.

Results

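Odorant-binding proteins are small secreted proteins of the fluid around insect chemosensory neurons. In the antenna they are made mainly by the support cells of the sensilla, bind hydrophobic odorants and pheromones, and help to carry them to or clear them from the receptor neurons. The family also has members outside the chemosensory organs, in fat body, glia and the reproductive tract. The genes examined here were *Obp99a*, *Obp99b*, *Obp99c*, *Obp99d*, *Obp83cd*, *Obp83ef*, *Obp83g*, *Obp8a* and *Obp44a*. They are 9 of the 52 odorant-binding protein genes in a count table of 17490 genes, and were put together because their levels had been seen to vary with genotype in these same samples. Values of the 3 mutant groups against wild type are therefore given as a description, without p-values. A mutant value is termed called, risen or fallen where it passed the adjusted threshold of the fit over all genes. For the 9 genes these calls fall on the contrasts used to choose them. They are labels and not tests, and a call kept or lost under another setting adds no evidence. The comparison of housing within wild type is the one tested.

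RNA came from the third antennal segment of 7-day-old males, with 180 antennae from 90 flies pooled in each sample. The groups were w1118 males kept singly from the pupal stage (w1118 SH, 3 samples), *Or47b1* mutants (3 samples), *Or67dGAL4* mutants (3 samples), *fruLexA/fru4-40* mutants (2 samples) and w1118 males kept in vials of 25 to 30 (w1118 GH, 3 samples). All 3 mutants were housed in groups. *Or47b* and *Or67d* are pheromone receptors of olfactory receptor neurons. The *Or47b1* flies were homozygous for the allele and carried *Or47b-GAL4* and *UAS-mCD8GFP*, and the *Or67dGAL4* flies were homozygous for a GAL4 knock-in at *Or67d* and carried *UAS-mCD8GFP*. The *fruLexA/fru4-40* flies lacked the male-specific *fruitless* products through a pair of different *fru* alleles, in a w+ strain. These are constitutive mutations in lines whose genetic background differed from that of w1118, so an effect of the allele and one of the background cannot be told apart. Another *fruLexA/fru4-40* sample (replicate 1), which carries a quality warning and is not among the samples of the study, is described separately.

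The 14 samples held 8570425 to 14908299 counted reads, so that 3 reads were worth 0.201 to 0.350 counts per 1000000 (CPM). *Or47b* stood at 0.555 to 0.859 RPKM in *Or47b1* samples, against 121 to 133 in w1118 GH. *Or67d* stood at 0.0802 to 0.927 RPKM in *Or67dGAL4* samples, against 71.6 to 76.6 in w1118 GH. The gene-level count of *fru* (3.73 to 3.86 RPKM in *fruLexA/fru4-40*, against 3.96 to 4.62 in w1118 GH) does not separate its transcripts and does not check that label. RPKM is the number of reads per kilobase of exon scaled to library size in the way of CPM, with library sizes scaled by the TMM method. All 8 markers of olfactory neurons were detected, with a summed level of 2161 to 3299 RPKM over the 14 samples, and of the 64 markers of all the cell types listed, only *Or46a*, a maxillary palp receptor, had no count in any sample. In bulk tissue, fewer cells of a type and less RNA per cell cannot be told apart.

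The 9 genes lie in 4 places in the dm6 genome. *Obp99a* (FBgn0039678, 3R:29671657-29672334, plus strand), *Obp99c* (FBgn0039682, 3R:29685736-29689311, minus), *Obp99d* (FBgn0039684, 3R:29714505-29715004, plus) and *Obp99b* (FBgn0039685, 3R:29716254-29716896, minus) are spread over 45240 bases. *Obp83cd* (FBgn0046878, 3R:6108134-6109733, plus), *Obp83ef* (FBgn0046876, 3R:6109642-6111034, minus) and *Obp83g* (FBgn0046875, 3R:6111671-6112302, minus) lie within 4169 bases. *Obp8a* (FBgn0030103, X:9214876-9215699, plus) and *Obp44a* (FBgn0033268, 2R:8134170-8135315, minus) each stand apart from the others. *Obp83cd* and *Obp83ef* encode proteins with a tandem pair of the odorant-binding domain, while the *Obp99* genes, *Obp8a* and *Obp44a* belong to the Minus-C branch of the family, whose proteins lack a pair of the conserved cysteines. The libraries were not stranded, and 92 exon bases are shared by *Obp83cd* and *Obp83ef*, 205 by *Obp44a* and *Pabp2*, and 23 by *Obp99c* and *Gycalpha99B*, on opposite strands. Reads in these stretches cannot be assigned to one gene of the pair.

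All 9 were minor members of the family in the antenna. In w1118 GH, *Obp8a* ranked 17th by mean RPKM among the 52 genes (13.5 ± 1.55, SD, n = 3), *Obp99c* 18th (12.6 ± 7.83) and *Obp44a* 21st (6.5 ± 3.8). *Obp99b* (3.35 ± 1.33), *Obp99d* (2.21 ± 1.01) and *Obp99a* (1.96 ± 0.0606) followed at ranks 25 to 27, and the *Obp83* genes came last with 0.315 ± 0.148 RPKM for *Obp83ef*, 0.240 ± 0.154 for *Obp83cd* and 0.0534 ± 0.0924 for *Obp83g*. *Obp83b*, which encodes an abundant binding protein of trichoid sensilla, was the highest of the family at 4811 RPKM. The 9 genes together took 0.0663 to 0.359% of the reads of the family in the 14 samples. The precision of most values below is therefore set by read number, and small counts are given as counts.

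**Figure D1:**
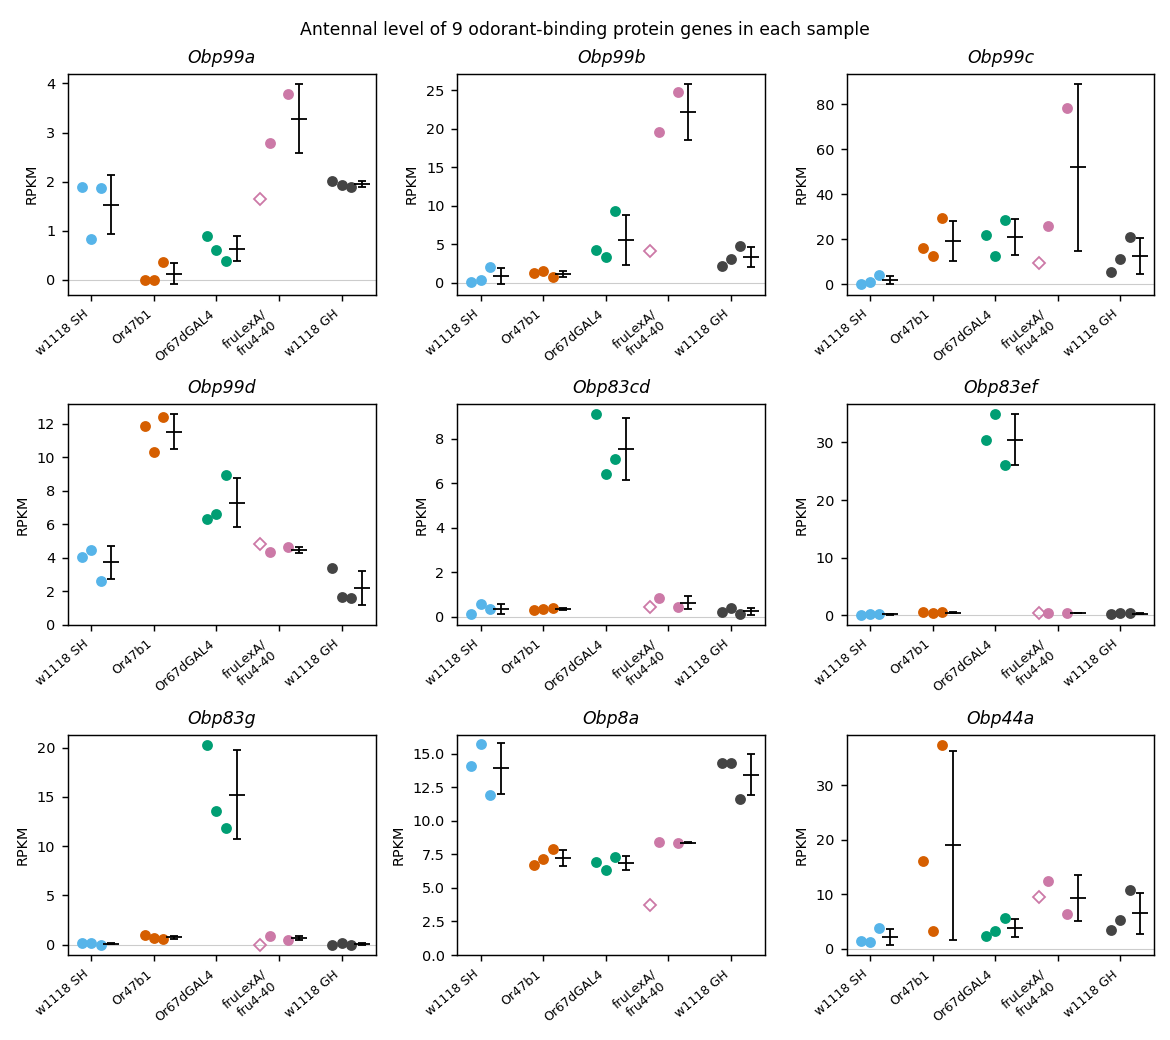
RPKM (y axis) of each of the 9 genes in every sample, by group (x axis). Filled points are the samples of the fit, black bars are the group mean ± SD (n = 3, and n = 2 for *fruLexA/fru4-40*), and the open diamond is *fruLexA/fru4-40* replicate 1, which was left out of the fit. The 3 *Obp83* genes stand above all other groups in *Or67dGAL4* (6.40 to 34.9 RPKM), *Obp99d* is highest in *Or47b1*, *Obp99b* and *Obp99c* are highest in *fruLexA/fru4-40*, and *Obp8a* is lower in all 3 mutants than in both w1118 groups.

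The 3 adjacent *Obp83* genes were near the limit of detection everywhere except in *Or67dGAL4*. *Obp83ef* had 252, 333 and 200 reads in the *Or67dGAL4* samples, against 2, 4 and 4 in w1118 GH. *Obp83cd* had 75, 61 and 54 reads in *Or67dGAL4*, against 3, 4 and 1 in w1118 GH. *Obp83g* had 106, 82 and 57 reads in *Or67dGAL4*, against 0, 1 and 0 in w1118 GH. No sample of another group came near the *Or67dGAL4* samples: the highest count elsewhere was 8 for *Obp83cd*, 5 for *Obp83ef* and 6 for *Obp83g*. In RPKM, *Or67dGAL4* samples averaged 30.5 ± 4.36 for *Obp83ef*, 7.52 ± 1.40 for *Obp83cd* and 15.2 ± 4.48 for *Obp83g* (SD, n = 3). Scaled for depth, the *Or67dGAL4* reads were 104 times those of w1118 GH for *Obp83ef* (95% counting interval 56.5 to 219), 31.6 times for *Obp83cd* (15.7 to 74.2) and 326 times for *Obp83g* (58.0 to 12920, since w1118 GH held 1 read). These intervals are exact, and like the read limits above they cover counting error only. The fitted log2 fold changes in *Or67dGAL4* were 6.61 ± 0.29 (SE) for *Obp83ef*, 4.91 ± 0.51 for *Obp83cd* and 7.81 ± 0.67 for *Obp83g*, the last resting on that single read. Without w1118 GH replicate 2, which held it, the fitted value of *Obp83g* was 9.54, so its size is not set by the data.

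In the other mutants the *Obp83* genes differed from w1118 GH by a few reads. *Obp83g* had 6, 4 and 3 reads in *Or47b1* and 5 and 3 in *fruLexA/fru4-40*, which is 16.4 times (interval 2.46 to 696) and 14.3 times (1.92 to 636) the depth-scaled reads of w1118 GH. Both groups lay above all 6 w1118 samples, which had at most 1 read. The log2 fold changes were 3.52 ± 0.81 in *Or47b1* and 3.35 ± 0.88 in *fruLexA/fru4-40*, and both passed the threshold, but the gene entered the test only through its *Or67dGAL4* reads, and these values rest on 13 and 8 reads against 1. Without *fruLexA/fru4-40* replicate 2, the call in that mutant was lost. *Obp83cd* (8 and 4 reads) and *Obp83ef* (4 and 4 reads) in *fruLexA/fru4-40* were not called, nor were they in *Or47b1* (3, 3 and 3 reads, and 5, 3 and 4 reads). The ranges of *Or47b1* and *fruLexA/fru4-40* overlapped for *Obp83ef* and *Obp83g*, while for *Obp83cd* the *fruLexA/fru4-40* samples (0.428 and 0.841 RPKM) lay above those of *Or47b1* (0.296 to 0.383 RPKM), on 8 reads at most.

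The 4 *Obp99* genes did not move as a block. *Obp99d* was highest in *Or47b1*, *Obp99b* and *Obp99c* were highest in *fruLexA/fru4-40*, and *Obp99a* was lowest in *Or47b1*. *Obp99d* had 11.9, 10.3 and 12.4 RPKM in *Or47b1*, against 3.37, 1.64 and 1.61 in w1118 GH. All 3 *Or47b1* samples were above every sample of the other 4 groups, and the log2 fold change was 2.35 ± 0.32, called as a rise. In *Or67dGAL4*, *Obp99d* had 6.32, 6.60 and 8.95 RPKM, again above all w1118 samples of either housing, with a log2 fold change of 1.69 ± 0.32 over w1118 GH, which was also called. In *fruLexA/fru4-40* it had 4.35 and 4.62 RPKM, above the w1118 GH samples but overlapping those of w1118 SH (log2 fold change 0.99 ± 0.36, not called). It was called there without w1118 GH replicate 1 (1.45), without w1118 SH replicate 3 (0.98) and with all 15 samples. The order of the group means was *Or47b1*, *Or67dGAL4*, *fruLexA/fru4-40*, w1118 SH and w1118 GH, and the ranges of the last 3 overlapped from neighbour to neighbour.

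*Obp99a* was read at low depth throughout and was nearly absent from *Or47b1*. It had 0, 0 and 2 reads in the *Or47b1* samples, against 19, 13 and 13 in w1118 GH. All 3 *Or47b1* samples were below every other sample (0.376 RPKM at most, against 0.386 at the lowest elsewhere, in *Or67dGAL4*). Both of those values came from 2 reads, so the gap between them reflects library size only. The samples without a read allow up to 0.264 and 0.293 CPM. The depth-scaled reads in *Or47b1* were 0.0560 times those in w1118 GH (95% interval 0.00658 to 0.214), and the fitted log2 fold change was -3.91 ± 0.75, called as a fall. It was -6.71 without *Or47b1* replicate 3, which held the 2 reads, and -3.32 without *Or47b1* replicate 1, called in both cases. *Obp99a* had 5, 4 and 2 reads in *Or67dGAL4*, below the 3 w1118 GH samples, with a log2 fold change of -1.59 ± 0.58 that was not called but passed when any 1 of the *Or47b1* samples was left out or when the fit held *Or67dGAL4* and w1118 GH only. In *fruLexA/fru4-40* it had 18 and 24 reads (2.79 and 3.78 RPKM), above all w1118 samples, and was not called (0.74 ± 0.55).

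*Obp99b*, also known as *turn on sex-specificity* from its male-biased transcription in the fat body of the head, stood out in *fruLexA/fru4-40*. It had 19.6 and 24.8 RPKM in *fruLexA/fru4-40*, against 2.18, 3.07 and 4.81 in w1118 GH. Both mutant samples were above all others, the next being an *Or67dGAL4* sample at 9.32 RPKM. The log2 fold change was 2.73 ± 0.61, called as a rise. In *Or47b1* the 3 samples (1.34, 1.54 and 0.772 RPKM) lay below the w1118 GH samples (-1.42 ± 0.65, not called), while in *Or67dGAL4* (4.22, 3.34 and 9.32 RPKM) they overlapped them (0.74 ± 0.58, not called). The summed level of 9 fat body markers was 26.9 to 54.9 RPKM in *fruLexA/fru4-40*, against 18.9 to 29.2 in w1118 GH, with 1 of 8 tested markers called as risen and none as fallen, and none of the 9 at 0 in all samples. The part of fat body RNA in the level of *Obp99b* was not tested.

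*Obp99c* was high in *fruLexA/fru4-40* but varied widely within groups. It had 25.7 and 78.0 RPKM in *fruLexA/fru4-40*, against 5.43, 11.3 and 20.9 in w1118 GH. Both mutant samples were above the w1118 GH samples. They differed between themselves by more than the w1118 GH samples did in RPKM, but not as a ratio. The log2 fold change was 2.07 ± 0.61, which was called, but the call was lost without *fruLexA/fru4-40* replicate 3, without w1118 GH replicate 1, with DESeq2, with the pair of groups fitted alone and with all 15 samples (log2 fold change 1.05 to 2.66 over the alternatives). The group ranges of *fruLexA/fru4-40*, *Or67dGAL4* (12.7 to 28.7 RPKM), *Or47b1* (12.7 to 29.5 RPKM) and w1118 GH overlapped from neighbour to neighbour in the order of their means. Neither *Or67dGAL4* (0.76 ± 0.58) nor *Or47b1* (0.64 ± 0.59) was called.

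*Obp8a* had the smallest standard errors of the 9 genes and was lower in all 3 mutants. It had 6.68, 7.13 and 7.88 RPKM in *Or47b1*, 6.94, 6.32 and 7.30 in *Or67dGAL4*, and 8.39 and 8.37 in *fruLexA/fru4-40*, against 14.3, 14.3 and 11.7 in w1118 GH. All 8 mutant samples lay below all 6 w1118 samples of either housing, the lowest of which had 11.7 RPKM. Log2 fold changes over w1118 GH were -0.90 ± 0.16 in *Or47b1* and -0.97 ± 0.16 in *Or67dGAL4*, with -0.68 ± 0.18 in *fruLexA/fru4-40*, and all 3 were called. The call in *fruLexA/fru4-40* was lost without its replicate 2. These 3 comparisons share the same w1118 GH samples. Among the mutants, *fruLexA/fru4-40* samples were above all *Or47b1* and *Or67dGAL4* samples, whose ranges overlapped.

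*Obp44a*, which has been described in glia as a lipid-binding protein, was not called in any comparison. It had 16.2, 3.30 and 37.5 RPKM in *Or47b1*, 2.43, 3.33 and 5.69 in *Or67dGAL4*, and 12.4 and 6.34 in *fruLexA/fru4-40*, against 3.50, 5.33 and 10.8 in w1118 GH. The 3 *Or47b1* samples spanned more than the whole range of the other 4 groups, and every mutant group overlapped w1118 GH. Log2 fold changes were 1.54 ± 0.68 in *Or47b1* and -0.77 ± 0.73 in *Or67dGAL4*, with 0.53 ± 0.76 in *fruLexA/fru4-40*. Without *Or47b1* replicate 2 the value in *Or47b1* was 2.05 and was called, and without *Or47b1* replicate 3 it was 0.59 and was not (0.59 to 2.11 with single samples left out).

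**Figure D2:**
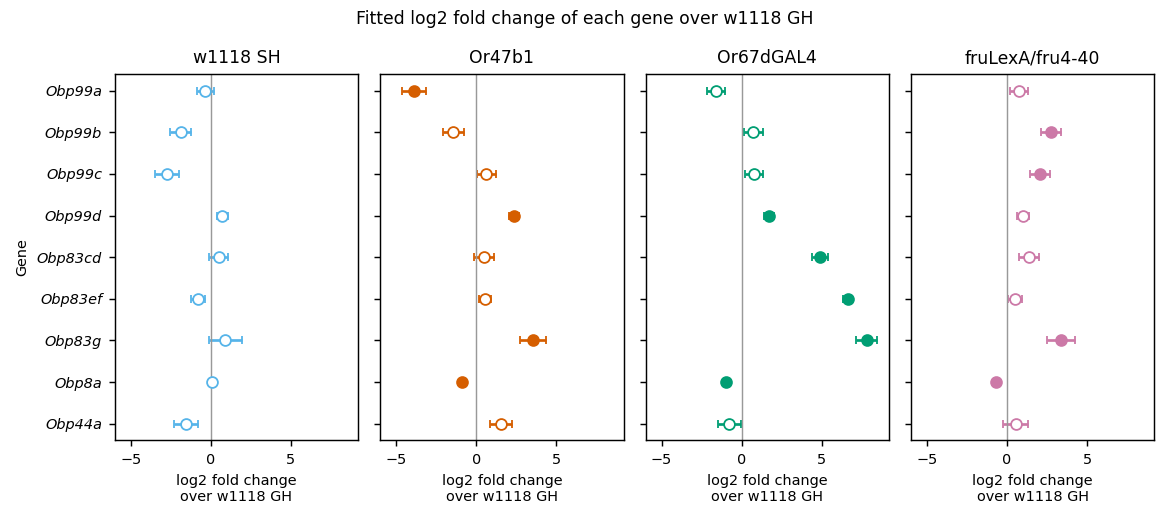
Fitted log2 fold change over w1118 GH (x axis) of each gene (y axis), 1 panel per group, with bars of ± 1 SE. Filled points were called at an adjusted p under 0.05 over all genes and open points were not. In the mutant panels the genes were chosen on the contrast shown, so filling there is a label and not a test. In w1118 SH no point is filled, in *Or67dGAL4* the *Obp83* genes lie at 4.91 to 7.81, and *Obp8a* lies at -0.68 to -0.97 in the 3 mutants. The points of *Obp83g* rest on 1 read in w1118 GH.

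Counted over all 9 genes, 2 rose and 2 fell in *Or47b1*, beside 20.4% of all 10358 genes tested that were called (10.5% rose and 9.97% fell). In *Or67dGAL4*, 4 rose and 1 fell, beside 29.5% of all genes (14.4% rose and 15.1% fell). In *fruLexA/fru4-40*, 3 rose and 1 fell, beside 30.8% (15.5% rose and 15.3% fell), and without replicate 2 of that mutant 2 of the 9 were called, beside 12.8% of the 11412 genes then tested. The ranges did not overlap those of w1118 GH for 5 of the genes in *Or47b1* (2 higher and 3 lower), beside 40.8% of all genes (20.4% in either direction). They did not overlap for 6 in *Or67dGAL4* (4 higher and 2 lower), beside 42.0% (19.2% higher and 22.8% lower), and for 8 in *fruLexA/fru4-40* (7 higher and 1 lower), beside 56.6% (30.2% higher and 26.4% lower). Since the genes were chosen on these contrasts and the 3 *Obp83* genes passed the filter on low counts only through *Or67dGAL4*, nothing is read from these counts. The median log2 fold change of the 9 genes was 0.55 in *Or47b1* and 0.76 in *Or67dGAL4*, with 0.99 in *fruLexA/fru4-40*, beside -0.01, -0.02 and 0.04 over all genes.

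Housing addresses how far the same genes differ within one genotype. The w1118 GH samples also took part in the choice of the genes, so this test is not independent of that choice. None of the 9 genes passed an adjusted p of 0.05 (edgeR quasi-likelihood test) in w1118 SH against w1118 GH, beside 0.994% of all genes (0.685% rose and 0.309% fell). The 3 *Obp83* genes, at 0 to 5 reads per sample in both housings and tested only through their *Or67dGAL4* reads, had too few reads for a call here (log2 fold changes -0.80 to 0.90). At an unadjusted p under 0.05 there were 3 of the 9, beside 15.8% of all genes. These were *Obp99b*, *Obp99c* and *Obp99d*. DESeq2 called 1 of the 9, *Obp99c*, beside 3.49% of all genes. The ranges did not overlap for 3 of the 9 (*Obp99a*, *Obp99b* and *Obp99c*, all lower in w1118 SH), beside 22.0% of all genes (11.5% higher and 10.5% lower). The median log2 fold change of the 9 was -0.34, beside 0.00 over all genes.

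*Obp99c* had the largest difference with housing. It had 0.265, 1.22 and 3.90 RPKM in w1118 SH, against 5.43, 11.3 and 20.9 in w1118 GH. All 3 single-housed samples were below all 3 group-housed ones. The log2 fold change was -2.72 ± 0.76 (edgeR adjusted p = 0.12, n = 3 each), and the adjusted p ran from 0.015 to 0.34 over the alternatives. The log2 fold change was -4.07 without w1118 SH replicate 3 and -2.13 without w1118 GH replicate 3. DESeq2 gave an adjusted p of 0.023, and edgeR with a replicate block gave 0.015. Replicate 3 held the highest value of *Obp99c* in every group. *Obp99b* had 0.149, 0.344 and 2.06 RPKM in w1118 SH, against 2.18, 3.07 and 4.81 in w1118 GH. Here too the groups did not overlap, and w1118 SH replicate 3 was the highest of its group for both genes. The log2 fold change of *Obp99b* was -1.89 ± 0.66 (edgeR adjusted p = 0.19), and without w1118 SH replicate 3 it was -3.67 with an adjusted p of 0.040, over a range of 0.040 to 0.47.

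*Obp44a* had 1.40, 1.23 and 3.79 RPKM in w1118 SH, against 3.50, 5.33 and 10.8 in w1118 GH, a log2 fold change of -1.56 ± 0.76 (edgeR adjusted p = 0.35). Its ranges overlapped, through w1118 SH replicate 3 and w1118 GH replicate 1. *Obp99d* was higher in w1118 SH on average, with 4.08, 4.49 and 2.61 RPKM in w1118 SH, against 3.37, 1.64 and 1.61 in w1118 GH (0.72 ± 0.33, edgeR adjusted p = 0.31), again with overlapping ranges. *Obp8a* had 14.1, 15.7 and 11.9 RPKM in w1118 SH, against 14.3, 14.3 and 11.7 in w1118 GH, a log2 fold change of 0.05 ± 0.15 (edgeR adjusted p = 0.95). The samples of both housings were interleaved. *Obp99a* had a log2 fold change of -0.34 ± 0.52 (edgeR adjusted p = 0.82). The summed level of 8 muscle markers was 5.28 to 15.2 RPKM in w1118 SH, against 18.7 to 141 in w1118 GH, without overlap, with none of 7 tested markers called and none of the 8 at 0 in all samples. The 9 fat body markers summed to 17.1 to 20.5 RPKM in w1118 SH, against 18.9 to 29.2 in w1118 GH. The 5 support-cell markers summed to 13980 to 15840 RPKM in w1118 SH, against 12010 to 13420 in w1118 GH, and the 8 olfactory neuron markers to 3073 to 3299 RPKM, against 2918 to 3028, both without overlap and with none called. Whether any of these cell types had a part in the levels of *Obp99b*, *Obp99c* and *Obp44a* was not tested.

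The genes that lie next to the 9 on the chromosome were read for the same comparisons. There were 20 such neighbours, 12 of them tested. None was called in w1118 SH, while 3 rose and 1 fell in *Or47b1* and 3 rose and 3 fell in *Or67dGAL4*. In *fruLexA/fru4-40*, 3 rose and 2 fell, and none of these was called without *fruLexA/fru4-40* replicate 2. The shares of all genes called are those given above. Around *Obp99a* both neighbours encode DEG/ENaC channel subunits of the pickpocket family, *ppk30* at 179 bases on one side and *ppk19* at 122 bases on the other. *ppk19* had 0, 0 and 0 reads in *Or47b1*, against 194, 106 and 125 in w1118 GH (7.25 ± 0.953 RPKM, SD, n = 3), at least 32.4-fold lower when the *Or47b1* level is set at 3 reads in the library where they weigh most. It fell also in *Or67dGAL4* (35, 32 and 28 reads, log2 fold change -1.72 ± 0.17) and in *fruLexA/fru4-40* (66 and 77 reads, -0.71 ± 0.18), and in w1118 SH it had 127, 99 and 146 reads (-0.01 ± 0.16). *ppk30* was below the filter, with 0 reads in the 3 *Or47b1* samples, against 13 reads over the 3 w1118 GH samples. That is too few reads to bound a fall of *ppk30*. *Bub3*, which overlaps *ppk19* by 217 bases on the other strand, had 16.1 ± 1.11 RPKM in *Or47b1*, against 17.7 ± 0.215 in w1118 GH (SD, n = 3 each, not called).

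Further along the *Obp99* stretch, *CG7582* rose in *Or47b1* (0.71 ± 0.08) and *fruLexA/fru4-40* (0.30 ± 0.09), and *Gycalpha99B*, a soluble guanylyl cyclase subunit that overlaps *Obp99c*, fell in *Or67dGAL4* (-0.43 ± 0.09) and *fruLexA/fru4-40* (-0.50 ± 0.10). *CG15506*, next to *Obp99b*, rose in *Or47b1* (0.90 ± 0.17) and *Or67dGAL4* (0.69 ± 0.17). These directions were not those of the *Obp99* gene beside them in every group: in *fruLexA/fru4-40* *Obp99c* rose while *Gycalpha99B* fell, and in *Or67dGAL4* *Obp99c* was not called. *Dup99B*, which encodes a peptide of the male ejaculatory duct and lies between *Obp99d* and *Obp99b*, had 12 reads over the *Or47b1* samples, 9 over *Or67dGAL4* and 4 over *fruLexA/fru4-40*, against 6 over w1118 GH, and was below the filter.

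Beside the *Obp83* genes, *Gasp*, which encodes a chitin-binding protein of the cuticle, had 41.8, 49.0 and 32.2 RPKM in *Or67dGAL4*, against 9.72, 10.3 and 11.4 in w1118 GH. The *Or67dGAL4* samples were above those of all other groups, whose highest value was 12.97 RPKM in *fruLexA/fru4-40*. The log2 fold change was 1.98 ± 0.18, called as a rise, at 7247 bases from *Obp83cd*. The gene between them, *lncRNA:CR44929*, had 9 reads in all *Or67dGAL4* samples, against 2 in w1118 GH. *Or83c*, an odorant receptor gene at 29851 bases, rose in *Or67dGAL4* (0.57 ± 0.15), *Or47b1* (0.73 ± 0.15) and *fruLexA/fru4-40* (0.52 ± 0.17). On the other side, *Vha14-2* and a pair of long noncoding RNA genes were below the filter, with 4 reads in *Or67dGAL4*, against 15 in w1118 GH, for *Vha14-2*.

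Near *Obp8a*, *CG15368* at 86 bases fell in *Or67dGAL4* (-1.64 ± 0.27). It was not called in *Or47b1* (-0.51 ± 0.26) or *fruLexA/fru4-40* (-0.23 ± 0.28). *SmydA-9*, at 3989 bases on the other side, was not called in any group (-2.06 to -0.04, with SE up to 1.06). Near *Obp44a*, *Pabp2*, a poly(A)-binding protein gene that shares exon bases with it, rose in *fruLexA/fru4-40* (0.46 ± 0.15), and *Lpin*, a phosphatidate phosphatase gene, was not called in any group (-0.17 to 0.09).

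**Figure D3:**
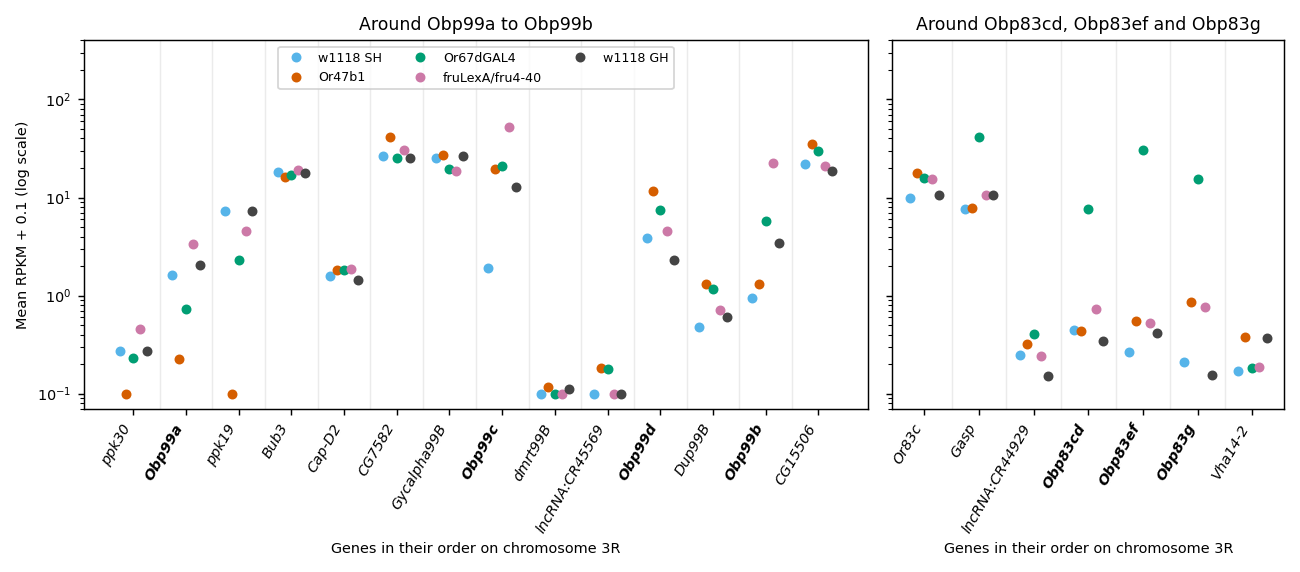
Mean RPKM + 0.1 (y axis, log scale) of the *Obp99* genes with their neighbours (left) and the *Obp83* genes with their neighbours (right), in chromosomal order and not to scale (x axis), 1 point per group (n = 3, and n = 2 for *fruLexA/fru4-40*). Names in bold are the genes of the set. In *Or47b1*, *ppk30* and *ppk19* lie at 0 on either side of *Obp99a*, and in *Or67dGAL4*, *Gasp* and the 3 *Obp83* genes lie above the other groups while *lncRNA:CR44929* and *Vha14-2* stay below 1 RPKM.

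The other 43 genes of the family gave a frame for these values. Of 22 tested, 12 rose and 2 fell in *Or47b1*, beside 10.5% and 9.97% of all genes tested. In *Or67dGAL4*, 5 rose and 0 fell, beside 14.4% and 15.1%. In *fruLexA/fru4-40*, 12 rose and 0 fell, beside 15.5% and 15.3%. The median log2 fold change of the 22 was 0.38 in *Or47b1* and 0.20 in *Or67dGAL4*, with 0.57 in *fruLexA/fru4-40*, beside -0.01, -0.02 and 0.04 over all genes. The largest rises were those of *Obp56c* (4.45 ± 0.86) and *Obp58b* (0.99 ± 0.17) in *Or47b1*, of *Obp56d* (0.82 ± 0.12) and *lush* (0.80 ± 0.08) in *Or67dGAL4*, and of *Obp56c* (3.80 ± 0.94) and *Obp56d* (1.56 ± 0.14) in *fruLexA/fru4-40*. The falls in *Or47b1* were those of *Obp84a* (-1.53 ± 0.09) and *Obp57b* (-0.64 ± 0.12). *Obp84a* was also the 1 gene of the 22 that rose in w1118 SH (0.52 ± 0.08), beside 0.685% of all genes. That call was lost without w1118 SH replicate 2 or w1118 GH replicate 3. *lush* encodes the binding protein of the male pheromone cis-vaccenyl acetate. *Obp56c* was at 43 reads in *Or47b1* and 19 in *fruLexA/fru4-40*, against 2 in w1118 GH. The 5 support-cell markers, all abundant odorant-binding proteins, summed to 16990 to 17270 RPKM in *Or47b1*, 14900 to 18630 in *Or67dGAL4* and 19120 to 19290 in *fruLexA/fru4-40*, against 12010 to 13420 in w1118 GH. *Obp8a*, lower in all 3 mutants, therefore went against the summed level of those genes. All 5 markers rose in *Or47b1* and *fruLexA/fru4-40*, while 3 rose in *Or67dGAL4*, where *Obp28a* (-0.17) and *Obp59a* (-0.12) were not called.

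Markers of other tissues moved with some groups as well. In *fruLexA/fru4-40*, 3 markers of the second antennal segment summed to 26.2 to 27.9 RPKM, against 7.76 to 12.2 in w1118 GH, with 1 of 3 called as risen. That gene was *nompA*, which encodes a protein of the extracellular cap of mechanosensory sensilla (23.1 RPKM, against 5.62 in w1118 GH), while the auditory channel genes *iav* (2.12 RPKM, against 3.00) and *nan* (1.87 RPKM, against 1.18) were not called. Also in *fruLexA/fru4-40*, 9 photoreceptor markers summed to 4.37 to 23.0 RPKM, against 2.43 to 3.70 in w1118 GH, with 1 of 7 tested called as risen. The 8 muscle markers summed to 38.4 to 143 RPKM, against 18.7 to 141 in w1118 GH, with 2 of 7 tested called as risen, *Act88F* (3.12) and *Obsc* (1.28). None of these markers was at 0 in all samples. Their part in the levels of *Obp99a*, *Obp99b* and *Obp99c* in that mutant was not tested. In *Or67dGAL4* the summed photoreceptor, muscle, fat body and second-segment markers all overlapped w1118 GH. Single markers were called there. Of 7 tested photoreceptor markers *Rh4* rose (5.30, at 1.88 RPKM against 0.0385) and *ninaC* fell (-1.19). Of 8 tested fat body markers *Lsp2* rose (4.17, at 0.278 RPKM against 0.00873). No muscle or second-segment marker was called in *Or67dGAL4*. There the sum of the 5 gustatory markers was lower (29.3 to 34.0 RPKM, against 34.6 to 37.8), with none of 4 tested called. The sum of the 8 olfactory neuron markers was also lower (2161 to 2571 RPKM, against 2918 to 3028). The summed gustatory markers were higher in *Or47b1* (52.5 to 57.7 RPKM) and in *fruLexA/fru4-40* (44.6 to 47.1). Most of that sum was *Gr64f*, the 1 of 4 tested that rose in each, while *Gr66a* and *Gr33a* fell in both. The summed olfactory neuron markers were lower in both (2599 to 2883 and 2384 to 2417 RPKM). Not every gene of that list went down. Of the 8, 4 fell in *fruLexA/fru4-40*, 5 in *Or67dGAL4* and 3 in *Or47b1*, while *Or83c* alone rose in each mutant. *Orco* (0.04) and *Ir76b* (0.02) were not called in *Or47b1*. The part of these cell types in the levels of the 9 genes was not tested.

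Across the 14 samples, the pattern of each gene was compared with that of every other tested gene by Pearson's r of log2 CPM. These correlations are descriptions over samples that share 5 groups and differ in depth. The 3 *Obp83* genes were alike (r = 0.955 to 0.965). They had few reads outside *Or67dGAL4* and were chosen on that contrast, so r with them mostly restates the rise in that group. The genes most like *Obp83ef* were *CG10936* (0.986), *CG33306* (0.986) and *GlcAT-P* (0.981), those most like *Obp83cd* were *CG1227* (0.977), *CG33306* (0.965) and *CG33468* (0.965), and those most like *Obp83g* were *ppk25* (0.980), *l(1)G0320* (0.976) and *CR43087* (0.973). *ppk25*, a DEG/ENaC subunit of pheromone-sensing neurons, averaged 53.0 RPKM in *Or67dGAL4*, 8.63 in *Or47b1* and 9.86 in *fruLexA/fru4-40*, against 3.95 in w1118 GH. *CG10936* averaged 18.2 RPKM in *Or67dGAL4*, against 1.60 in w1118 GH. *l(1)G0320*, by contrast, had a smaller range, with 108 RPKM in *Or67dGAL4*, against 55.6 in w1118 GH.

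*Obp99c* was most like *CG13315* (0.986), *CG6503* (0.985) and *CG15293* (0.981). *CG13315* averaged 3.87 RPKM in w1118 SH and 28.0 in *Or47b1*, then 33.2 in *Or67dGAL4* and 95.9 in *fruLexA/fru4-40*, against 17.4 in w1118 GH, which is the order of *Obp99c*. *Obp99b* was most like *CG43896* (0.916), *lncRNA:CR31781* (0.915) and *Cpr66D* (0.905), a cuticle protein gene. Between the members, *Obp99b* and *Obp99c* had r = 0.779, *Obp99c* and *Obp44a* 0.669, and *Obp99a* and *Obp99d* -0.783. *Obp99b* and *Obp99d*, the *Obp99* genes closest to each other, had r = -0.138, so that proximity did not go with likeness for that pair. *Obp99a* was most like *CG40485* (0.944), *CG7231* (0.930) and *CG31809* (0.925), and *Obp99d* was most like *Rab9* (0.948), *jv* (0.930) and *nub* (0.919), the last a POU-domain transcription factor.

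*Obp8a* was most like *BomS1* (0.970), *qin* (0.960) and *Herc4* (0.958). *BomS1*, which encodes an immune-induced peptide of the Bomanin family, averaged 187 RPKM in w1118 SH and 6.41 in *Or47b1*, with 5.86 in *Or67dGAL4* and 15.5 in *fruLexA/fru4-40*, against 165.6 in w1118 GH. *Herc4*, a ubiquitin ligase gene, averaged 47.2 RPKM in *Or47b1* and 46.4 in *Or67dGAL4*, with 61.2 in *fruLexA/fru4-40*, against 100.6 in w1118 GH. *Obp44a* was most like *CG42260* (0.905), *CG1545* (0.889) and *CG13594* (0.884). With Spearman's rank correlation, 3 of the 27 genes listed stayed among the 3 most alike, and with all 15 samples 14 of the 27 did.

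The *fruLexA/fru4-40* sample left out of the fit (replicate 1, 5907543 reads) bears on which levels are shared by all samples of that mutant. For *Obp99b* it had 4.09 RPKM (12 reads), below the 18.9 and 23.9 of the other *fruLexA/fru4-40* samples under the same scaling of all 15 samples and within the 2.20 to 4.78 of w1118 GH. For *Obp99c* it had 9.37 RPKM, also below the other *fruLexA/fru4-40* samples (24.9 and 75.4) and within w1118 GH (5.47 to 20.8). The rises of *Obp99b* and *Obp99c* were therefore not seen in this sample. *Obp8a* was at 3.73 RPKM on 11 reads, below the other *fruLexA/fru4-40* samples (8.09 and 8.11) and below w1118 GH (11.6 to 14.5). *Obp99a* at 1.66 RPKM was below both, *Obp44a* at 9.59 RPKM lay within both, and *Obp83g* had no read, which allows up to 0.508 CPM.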

How the data were processed

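The authors used FASTP for trimming and MapSplice2 for mapping to dm6, kept deduplicated, properly paired reads above a mapping quality, and counted them per gene with featureCounts. The deposited values are raw counts, with exon length per gene. Tool versions are not given in the sources used here. Counting was per gene over libraries that the labels give as not stranded.

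Samples were grouped by genotype and housing in the labels. Counts of 14 samples in 5 groups were fitted together with edgeR 4.0.16 (R 4.3.3; filterByExpr, TMM, quasi-likelihood F test, group only), which left 10358 genes, all 9 members among them, with Benjamini-Hochberg adjustment over all of them and a threshold of 0.05. SE is the absolute log2 fold change divided by the square root of F. RPKM used TMM library sizes, and CPM in likeness used a prior count of 2. Intervals are exact at 95%. Each sample was a separate pool of flies, called a biological replicate, and whether pools came from separate cultures is not stated, so p-values measure the spread between these pools. Symbols came from a table of gene IDs (17288 of 17490 matched), and all 9 members had the same position in the Ensembl annotation of this assembly. Alternatives were DESeq2 1.42.0, the compared groups alone, RLE or total-count scaling, no filter, a filter of 1 CPM in 2 samples, a replicate block, all 15 samples, leaving out each sample, and a threshold of 0.01. On simulated counts from 10358 genes with 100 genes changed by a log2 value of 2, the fit recovered 80 (w1118 SH), 85 (*Or47b1*), 89 (*Or67dGAL4*) and 81 (*fruLexA/fru4-40*). Of 100 changed by a log2 value of 1, it recovered 70, 74, 72 and 70 in the same order, and 6 to 11 unchanged genes were called. The changed genes were drawn from all tested genes, so these rates do not describe genes with as few reads as most members.

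The members and lists were chosen with earlier results of these data known. Named genes are the members, their chromosomal neighbours, *Or47b* and *Or67d*, the 3 genes most like each member, the other odorant-binding proteins with up to 2 largest rises and falls per mutant, and marker lists; *Obp84a* in w1118 SH was named after its values were seen. The haemocyte, maxillary palp and male accessory gland lists were also read: their summed levels in w1118 SH overlapped w1118 GH, and the palp list was lower in the 3 mutants (2.50 to 4.59 RPKM, against 6.99 to 7.61), the haemocyte list, mostly *crq*, was lower in *Or47b1* (67.6 to 67.9, against 72.3 to 77.2) with 1 of 5 tested risen (*NimC1*) and none fallen and the accessory gland list overlapped (0 to 8.75, against 0.156 to 0.307). Sequence features were not analysed here.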

Additional observations from a re-analysis of the deposited data

Results flagged for a closer look

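In *fruLexA/fru4-40* replicate 1, a sample outside the comparisons, *Obp99d* stood at 4.85 RPKM on 12 reads, above all 3 w1118 GH samples (1.60 to 3.40 RPKM under the same scaling) and above the other *fruLexA/fru4-40* samples (4.20 and 4.46 RPKM). The sample carries a quality warning and the lowest depth of the series. With it in the fit, *Obp99d* was called in *fruLexA/fru4-40*.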

How the results depend on the processing

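No called change reversed its direction under any alternative. Log2 fold changes near 0 changed sign in w1118 SH: without w1118 SH replicate 2 that of *Obp83cd* was -0.02 (0.48 with all samples) and that of *Obp8a* -0.05 (0.05), and without w1118 GH replicate 3 that of *Obp8a* was -0.05 (ranges with samples left out -0.02 to 0.97 and -0.05 to 0.16). In *fruLexA/fru4-40*, *Obp44a*, not called, ran from -0.02 to 1.10. Of the members, none was called in w1118 SH, 1 with DESeq2 and 1 with the replicate block (*Obp99c* in both, adjusted p = 0.023 and 0.015), and 0 to 1 when single samples were left out. In *fruLexA/fru4-40*, 4 members were called, 2 with the compared groups alone, 1 at a threshold of 0.01 and 2 to 5 with samples left out. Of the other odorant-binding proteins, 1 was called in w1118 SH, 3 with DESeq2, 0 with all 15 samples and 0 to 3 with samples left out, and in *Or47b1* 14 were called and 8 with all 15 samples. Of the neighbours in *fruLexA/fru4-40*, 5 were called, 3 with the compared groups alone, 2 without a filter, 3 with the replicate block and 0 to 5 with samples left out, the lowest being without *fruLexA/fru4-40* replicate 2. Of the 27 most similar genes, 14 were kept with all 15 samples and 3 with Spearman's correlation. The cause of these differences was not tested. Over all genes, replicate numbers did not pair the samples. Of 26 same-number pairs, 11 had a correlation of deviations over 0.1 (-0.35 to 0.36), and 5 of 14 samples correlated best with their own number. *Obp99c*, however, was highest in replicate 3 of every group, *Obp99b* in all but *Or47b1* and *Obp44a* in all but *fruLexA/fru4-40*. With the replicate block, the SE of *Obp99c* in w1118 SH was 0.45, against 0.76 without it. The labels do not say what samples of the same number share. Applied to all genes of w1118 SH, the block called 165 against 103, DESeq2 362, the compared groups alone 13 and all 15 samples 16. Of the mutant log2 fold changes of members, 556 recomputed values moved by less than their spread and 32 by more. Alternatives for neighbours, and those for the other odorant-binding proteins except DESeq2, the replicate block and all 15 samples, were added after seeing the data. Most members had under 100 reads per sample, so depth limits fold changes of *Obp83cd*, *Obp83ef*, *Obp83g* and *Obp99a* outside the groups where they were high.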
